A study of Mus musculus with 8 samples.

Results

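The endothelin, bradykinin and natriuretic peptide genes examined here were 10 listed genes of vasoactive peptide signalling, 2 of them peptide precursors (Edn1, Nppb), 7 receptors (Ednra, Ednrb, Bdkrb1, Bdkrb2, Npr2, Npr3, Agtr1a) and 1 processing enzyme (Ece1). They were found by gene symbol in the probe-to-gene table of the array. The table held 11 probes for 9 of these genes, out of 24613 probes and 15967 genes in all, and Ednra, which had no probe in it, was not analysed here. All other probes of the list were kept, with no filter on signal.

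RNA from 3 mouse embryonic fibroblast lines was hybridized to 8 Illumina Mouse Ref-8 V1.1 arrays. The control line (3 arrays) was Flp-In-3T3, a 3T3 line built with a site for targeted integration, without an inserted Pax6 or Pax6(5a) cDNA and kept in 100 µg/ml Zeocin. The Pax6(5a) line (3 arrays) and the Pax6 line (2 arrays) carried mouse cDNA of the named isoform, cloned in the pEF5/FRT/V5-DEST vector, whose EF-1 alpha promoter is active in most cell types, and both were kept in 150 µg/ml hygromycin. Pax6 is a paired-domain transcription factor of eye, brain and pancreas development, and Pax6(5a) is its splice form with an extra exon inside the paired domain. The control line was sampled at passage 13 (replicates 1 and 2) and passage 19 (replicate 3), the Pax6(5a) line at passage 8 (replicates 1 and 2) and passage 13 (replicate 3), and the Pax6 line at passage 9 (replicate 1) and passage 15 (replicate 2). All lines had the same parent cells, medium and serum, and no treatment was given before harvest. Each insert was represented by 1 transfected line, and whether that was a clone or a pool is not given in the sources used here. The p-values thus measure the spread between RNA preparations and passages of a line and not between independent transfections. Whether replicates 1 and 2 of a passage came from separate cultures is not given either. The insert and the selection drug changed together and cannot be told apart, and neither can less RNA per cell and fewer cells of a kind.

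Vasoactive peptides are made as long precursors, cut to short active forms and sensed by receptors on nearby cells. The Edn1 product is trimmed by endothelin-converting enzymes such as Ece1 and acts on the G protein-coupled receptors Ednra and Ednrb, to constrict vessels and, in fibroblasts, to promote matrix synthesis. Kinins are cut from kininogens and act on Bdkrb2, which most cells carry all the time, and on Bdkrb1, which is typically induced by tissue injury and inflammation. Nppb encodes the B-type natriuretic peptide, a hormone of stretched heart muscle that raises cyclic GMP through the receptor Npr1. Npr2 is the guanylyl cyclase receptor of the C-type peptide, and Npr3 clears natriuretic peptides from the outside of the cell.

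The 2 peptide genes were the members that rose past the thresholds in a line with an insert, and the sequences upstream of them are shown for that reason, from RefSeq's promoter windows on build GRCm38.p6. Each holds the 250 bases before the annotated start on the plus strand. They lie at chr13:42301226-42301475 for Edn1 and at chr4:147985650-147985899 for Nppb. Capitals mark matches to 3 motifs, which were searched on both strands. GGAATG is the core that TEAD factors bind and reads CATTCC on the other strand, AGATAA is a motif of the GATA factors, and TATAAA is the TATA box.
Edn1: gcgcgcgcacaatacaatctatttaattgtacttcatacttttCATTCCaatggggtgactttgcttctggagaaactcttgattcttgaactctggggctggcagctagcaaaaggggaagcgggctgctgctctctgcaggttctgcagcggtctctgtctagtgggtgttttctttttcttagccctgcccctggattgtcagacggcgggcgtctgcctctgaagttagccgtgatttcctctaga
Nppb: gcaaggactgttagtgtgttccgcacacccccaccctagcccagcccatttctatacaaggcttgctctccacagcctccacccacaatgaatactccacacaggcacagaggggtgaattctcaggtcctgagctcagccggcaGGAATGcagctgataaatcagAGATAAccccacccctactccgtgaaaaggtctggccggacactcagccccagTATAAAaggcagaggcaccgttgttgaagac

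GGAATG began 105 bases upstream of the start of Nppb on the plus strand, and its reverse complement began 207 bases upstream of the start of Edn1. The Nppb window also held AGATAA, beginning 84 bases upstream, and TATAAA, beginning 31 bases upstream. None of the 3 motifs was in the windows of the other listed genes in that table, which had 8 of the 10 genes and did not hold Bdkrb1 or Agtr1a. Of all 32851 windows of this length, 12.6% held GGAATG, 9.99% held AGATAA and 12.4% held TATAAA on either strand, and the motifs were chosen after the windows of the members had been read, so a match is only a description of the letters.

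The arrays were alike in depth. They had 10083 to 10685 probes detected (detection p-value under 0.01), a median signal of 63.6 to 70.6 before normalization, and a lowest detected signal of 76.2 to 81.1 after it, in arbitrary intensity units. The 1 probe of Pax6 itself was detected on no array (signals of 45.2 to 52.5 on the control arrays, 47.2 to 50.6 on the Pax6(5a) arrays and 51.4 to 56.8 on the Pax6 arrays). Whether it lies inside the inserted cDNA is not given in the sources used here, so it checks none of the labels. Of 9 fibroblast markers, 8 were detected on all 8 arrays and Col3a1 on 2, and no epithelial (0 of 4) or leukocyte (0 of 3) marker was detected on any. In the Pax6 line 3 of the 9 fibroblast markers (Fn1, Pdgfra and Pdgfrb) fell, and of 6 smooth muscle markers 1, Acta2, rose in the Pax6(5a) line. All signals below are quantile normalized, and all differences are log2 differences from limma with adjusted p-values over all 24613 probes. A probe passed threshold 1 when its adjusted p was below 0.001 and its fold change reached 1.7, and threshold 2 when these were below 0.01 and reached 1.5. Only probes past threshold 2 are said to have risen or fallen.

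The cells had the RNA of part of this system above detection. Nppb, Bdkrb1, Npr2 and both Ece1 probes were detected on all 8 arrays, Npr3 on 7 and Edn1 on 5. Both Ednrb probes, Bdkrb2 and Agtr1a were detected on none. Relative to the control line, Edn1 and Nppb rose and Bdkrb1 fell in the Pax6 line, so that 3 of the 11 member probes passed threshold 2, against 2.02% of all probes. Threshold 1 was passed by 2 of them, Edn1 and Nppb, against 0.898% of all probes. In the Pax6(5a) line Nppb rose and Bdkrb1 fell, both past threshold 1, so that 2 of 11 were called at either threshold, against 0.967% of all probes at threshold 2 and 0.333% at threshold 1. No member passed threshold 2 between the Pax6 and Pax6(5a) lines, where 0.569% of all probes did. There limma gave 5 of the 11 an unadjusted p under 0.05, against 11.6% of all probes, and among these was Bdkrb2, which no array detected. Over the 11 probes the median log2 difference was 0.06 on the Pax6 arrays and -0.0044 on the Pax6(5a) arrays against the control line, and 0.06 between the Pax6 and Pax6(5a) lines, beside medians of 0.0034, -0.00051 and 0.0022 over all probes. The comparisons of each line with the control share the same 3 control arrays. The members were chosen with earlier results of these data known, so their shares beside those of all probes are no test of the list.

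**Figure D1:**
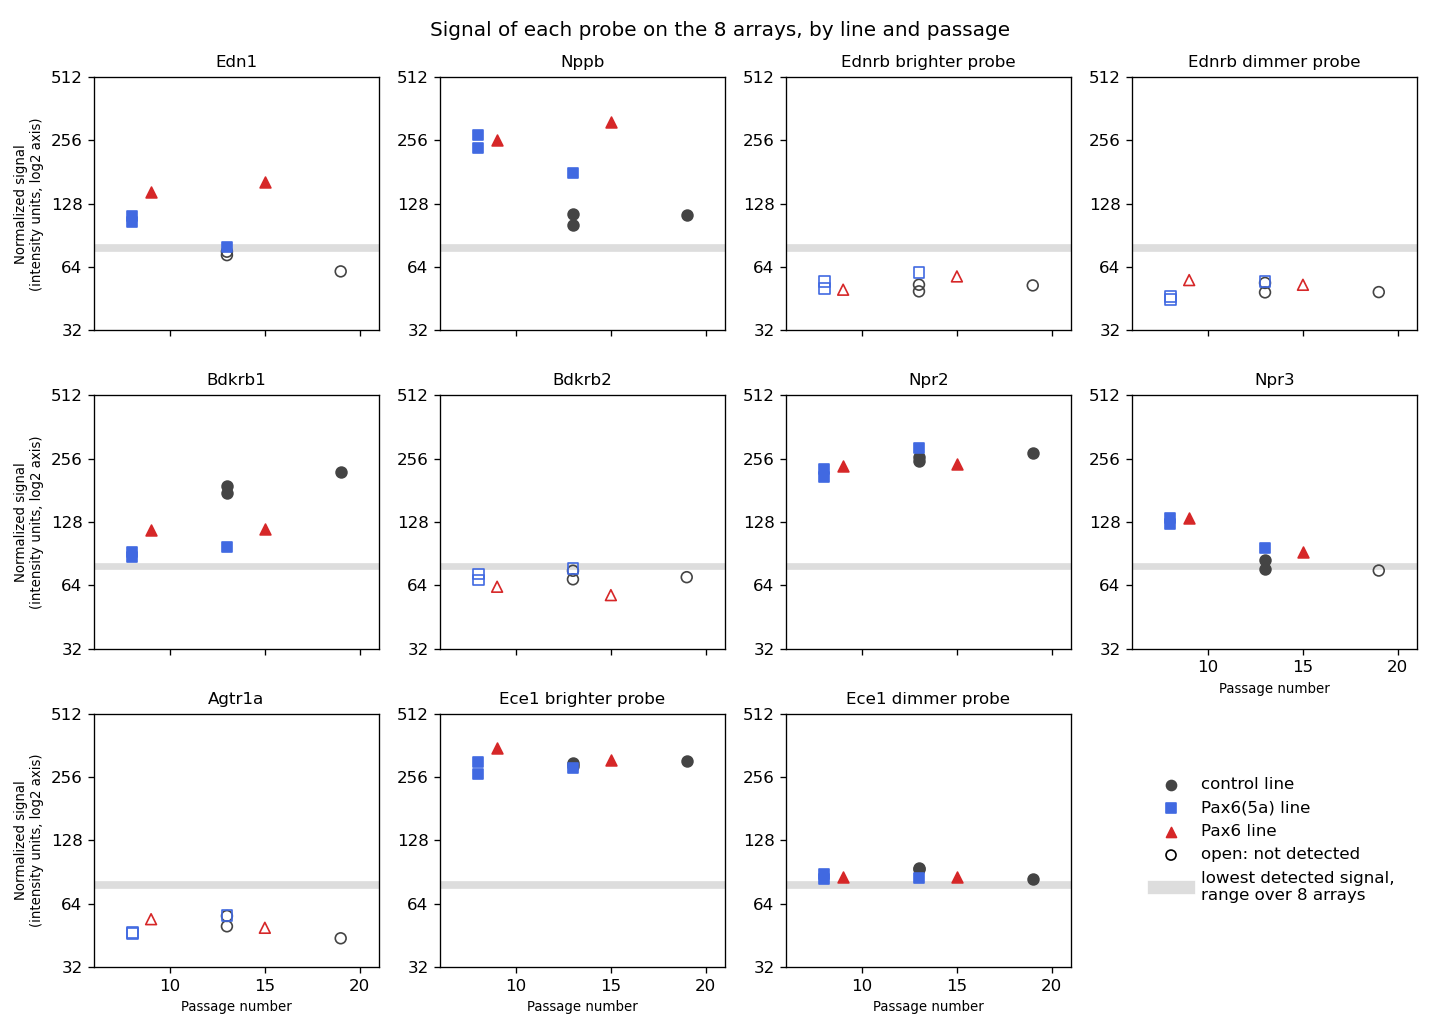
Quantile-normalized signal (vertical, intensity units on a log2 axis) of the 11 probes on each of the 8 arrays, against passage number (horizontal), by line. Filled symbols are detected and open ones not, and the grey band is the lowest detected signal, 76.2 to 81.1 over the arrays; the Pax6 line lies highest for Edn1, the control line lowest for Nppb and highest for Bdkrb1, and both Ednrb probes, Bdkrb2 and Agtr1a lie below detection throughout.

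Among the ligands, Edn1 (probe ILMN_2737713), the precursor of endothelin-1, had signals of 72.9, 75.7 and 61.0 in control replicates 1 to 3. In the Pax6(5a) line it had 104.7, 111.7 and 79.7, and in the Pax6 line 144.9 and 161.9. No control array detected it (detection p-values of 0.024, 0.0102 and 0.26), while every array of the lines with an insert did, and the signals of the 3 lines did not overlap. Control replicate 2 was just short of the limit of 0.01, and Pax6(5a) replicate 3 passed it with a detection p-value of 0.0051.
The order was thus control, Pax6(5a), Pax6. By estimate, the Pax6 line was at least 1.97-fold above the control line, where Edn1 had only an upper bound (log2 difference 1.14, SE 0.14, adjusted p = 2.72e-04 by limma). The Pax6(5a) line was by estimate at least 1.26-fold above the control (log2 difference 0.49, SE 0.12), which passed neither threshold with a limma adjusted p of 0.045. The Pax6 line was 1.57-fold above the Pax6(5a) line (95% interval 1.27 to 1.93), with a limma adjusted p of 0.033, also short of threshold 2. This last difference passed threshold 2 with passage number as a covariate (log2 0.73, adjusted p = 0.0034 by limma). Over 18 alternative settings it was 0.50 to 0.99 on the log2 scale. The lowest adjusted p, 0.0021 by limma, came with a replicate block that cannot be told apart from passage. With a background correction (neqc) the limma adjusted p was 0.16.

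For a bound, the arrays of a line that did not detect a gene were raised to the lowest signal that the same array did detect. The intensities also hold a background that all probes share, and with a background correction (neqc) the difference of Edn1 between the Pax6 and control lines was 1.88 on the log2 scale, with a limma adjusted p of 0.0088. In the Pax6(5a) line the array of passage 13 (replicate 3) stood apart for Edn1. At 79.7 it lay near the 72.9 and 75.7 of the control arrays of the same passage number, while both arrays of passage 8 were above 100. Without it, the Pax6(5a) line passed threshold 2 against the control (log2 difference 0.64, adjusted p = 0.0055 by limma). Passage 8 was not sampled in the control line, and with passage number as a covariate the difference was 0.30 (adjusted p = 0.27 by limma).

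Nppb (probe ILMN_2726837), the B-type natriuretic peptide gene, had signals of 114.8, 102.0 and 113.7 on the control arrays. The Pax6(5a) arrays had 271.4, 235.3 and 178.8, and the Pax6 arrays 258.1 and 313.0. All arrays of both lines with an insert were above every control array, and the 2 insert lines overlapped.
The Pax6 line was 2.58-fold above the control (95% interval 2.07 to 3.23, log2 difference 1.37, SE 0.15, limma adjusted p = 1.11e-04). The Pax6(5a) line was 2.05-fold above it (95% interval 1.68 to 2.50, log2 difference 1.03, SE 0.13, limma adjusted p = 7.39e-04). The Pax6 line was 1.26-fold above the Pax6(5a) line (95% interval 1.01 to 1.58), with a limma adjusted p of 0.39. The rise in the Pax6 line passed threshold 2 in all 18 alternative settings. That in the Pax6(5a) line did so in 16, and was lost with neqc (log2 1.40, adjusted p = 0.012 by limma) and when the preparations of a passage were averaged, which leaves 2 values for each line (log2 0.94, adjusted p = 0.031 by limma).

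Of the markers of other cell types, Cdh5 and Tnnt2 were higher on every array with an insert than on the control arrays. Cdh5, the cadherin of endothelial junctions and the endothelial marker of the list, was detected on all 8 arrays, with signals of 310.7, 349.8 and 309.4 on the control arrays, 503.9, 496.7 and 617.9 on the Pax6(5a) arrays and 867.3 and 868.0 on the Pax6 arrays. It rose by 1.43 on the Pax6 arrays (limma adjusted p = 4.72e-06) and by 0.73 on the Pax6(5a) arrays (limma adjusted p = 7.65e-04) on the log2 scale, in the same order of lines as Edn1. The other endothelial markers, Pecam1, Tek, Kdr, Vwf and Tie1, were detected on no array, and the summed signal of the 6 markers was 585 to 612 on the control arrays, 772 to 894 on the Pax6(5a) arrays and 1132 to 1144 on the Pax6 arrays. This rise was that of Cdh5: the 5 others summed to 263 to 276 on the control arrays, 275 to 279 on the Pax6(5a) arrays and 264 to 276 on the Pax6 arrays.
Tnnt2, the cardiac troponin T gene, had signals of 465.0, 490.9 and 466.4 on the control arrays, 1027, 1086 and 704.6 on the Pax6(5a) arrays and 662.1 and 918.8 on the Pax6 arrays. It passed threshold 2 in the Pax6(5a) line (log2 difference 0.96, adjusted p = 0.0032 by limma) and not in the Pax6 line (0.72, adjusted p = 0.023). Of the 5 cardiac markers, 2 were detected on all arrays and 2, Myh6 and Myl7, on none. Their summed signal was 792 to 832 on the control arrays, 1038 to 1428 on the Pax6(5a) arrays and 1006 to 1263 on the Pax6 arrays. Without Tnnt2 the other 4 summed to 327 to 346, 334 to 352 and 344 on these arrays, in the same order of lines. The part of cells of other types in the ligand results was not tested.

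**Figure D2:**
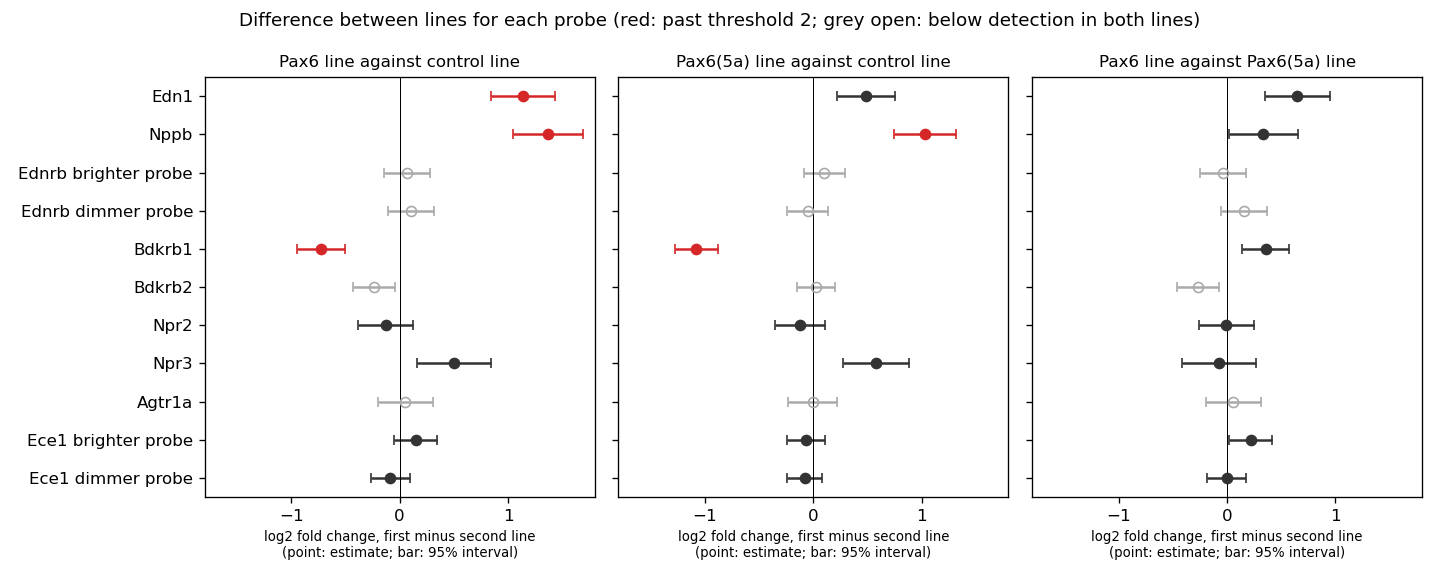
Log2 fold change of each of the 11 probes in the 3 comparisons of lines (horizontal, first minus second line), with the limma estimate as a point and its 95% interval as a bar. Red marks probes past threshold 2, which were Edn1, Nppb and Bdkrb1 in the Pax6 line and Nppb and Bdkrb1 in the Pax6(5a) line, and grey open points are probes below detection in both lines compared.

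Among the receptors, Bdkrb1 (probe ILMN_2750957), the receptor for kinins that have lost their last arginine, had signals of 189.8, 175.3 and 221.3 on the control arrays. It had 87.0, 92.2 and 97.1 on the Pax6(5a) arrays and 116.8 and 118.6 on the Pax6 arrays. The lines did not overlap, and the order was Pax6(5a), Pax6, control.
The Pax6(5a) line was 2.11-fold below the control (log2 difference -1.08, SE 0.09, limma adjusted p = 3.07e-05). The Pax6 line was 1.65-fold below it (log2 difference -0.72, SE 0.10, limma adjusted p = 8.31e-04), which passed threshold 2 and missed threshold 1 by its fold change. The Pax6 line lay 1.28-fold above the Pax6(5a) line (log2 difference 0.36, 95% interval 0.13 to 0.58), which did not pass either threshold (limma adjusted p = 0.13). With passage number as a covariate the log2 differences from the control were -0.94 for the Pax6(5a) line and -0.64 for the Pax6 line. The fall in the Pax6(5a) line passed threshold 2 in all 18 alternative settings. That in the Pax6 line passed in 17, and was lost without Pax6 replicate 1 (log2 difference -0.72, adjusted p = 0.011 by limma).

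Bdkrb2 (probe ILMN_1241487), the kinin receptor that most cells carry all the time, was not detected on any array, at signals of 68.4 to 75.1 on the control arrays, 67.9 to 77.0 on the Pax6(5a) arrays and 57.5 to 63.0 on the Pax6 arrays. The Pax6 arrays lay below all the others, but all values were below the detection limit and give no fold change.
The endothelin receptor gene Ednrb was not detected with either of its probes (49.0 to 60.3 for ILMN_1253408 and 44.9 to 55.5 for ILMN_2589640), nor was Agtr1a, a receptor of angiotensin II (43.8 to 56.0, ILMN_1248300). For these genes the arrays could not show a difference between lines, which does not mean that the RNA was absent.

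Npr3 (probe ILMN_1215359), the clearance receptor, had signals of 84.8, 76.3 and 75.2 on the control arrays, of which 2 detected it. The Pax6(5a) arrays had 134.4, 125.5 and 96.2, and the Pax6 arrays 134.3 and 92.5. Every array with an insert was above every control array, but neither difference passed threshold 2.
The log2 difference was 0.58 (SE 0.14, adjusted p = 0.039 by limma) for the Pax6(5a) line, a 1.49-fold difference, and 0.50 (SE 0.16, adjusted p = 0.087 by limma) for the Pax6 line. With passage number as a covariate these were 0.27 and 0.33, and neqc gave 0.99 and 0.87, with neither past the threshold in any of the 18 alternatives. Between the Pax6 and Pax6(5a) lines the log2 difference was -0.08 (95% interval -0.42 to 0.27).

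Npr2 (probe ILMN_2696026), the guanylyl cyclase receptor of the C-type peptide, had signals of 250.9, 261.0 and 272.2 on the control arrays, 229.3, 209.1 and 288.3 on the Pax6(5a) arrays and 236.0 and 241.4 on the Pax6 arrays. The Pax6(5a) arrays spanned those of the other lines. The log2 difference from the control was -0.13 on the Pax6 arrays (95% interval -0.38 to 0.12) and -0.12 on the Pax6(5a) arrays (95% interval -0.35 to 0.10), with limma adjusted p-values of 0.68 and 0.70.

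Ece1, the enzyme that trims the endothelin precursor, was measured with 2 probes, both detected on every array. The brighter (ILMN_2745993) had signals of 298.8, 287.6 and 305.8 on the control arrays, 264.7, 303.0 and 283.5 on the Pax6(5a) arrays and 351.9 and 308.8 on the Pax6 arrays. The dimmer (ILMN_1255063) had 84.2 to 94.5 on the control arrays, 83.5 to 88.4 on the Pax6(5a) arrays and 85.3 on both Pax6 arrays.
Neither probe passed a threshold, and the probes had opposite signs in the Pax6 line against the control, at 0.15 (95% interval -0.05 to 0.35) for the brighter and -0.09 (95% interval -0.27 to 0.10) for the dimmer.

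Each line was sampled at an earlier and a later passage, and a fit with a mean for each line asked whether the later one differed. No member passed threshold 2 for passage, against 0.223% of all probes, and 3 of the 11 had an unadjusted p under 0.05 by limma (Edn1, Npr2 and Npr3), against 14.6% of all probes. For Npr3 the log2 difference, later minus earlier, was -0.34 (SE 0.08, limma adjusted p = 0.048), from a mean of 80.4 to 75.2 on the control arrays, 129.8 to 96.2 on the Pax6(5a) arrays and 134.3 to 92.5 on the Pax6 arrays. Bdkrb1 was higher at the later passage in each line (log2 difference 0.15, unadjusted p = 0.054 by limma). It went from 182.4 to 221.3 on the control arrays, 89.6 to 97.1 on the Pax6(5a) arrays and 116.8 to 118.6 on the Pax6 arrays. The lines with an insert began at earlier passages than the control line. Edn1 and Nppb did not move one way in the 3 lines.
From earlier to later passage Nppb went from 252.7 to 178.8 on the Pax6(5a) arrays and from 258.1 to 313.0 on the Pax6 arrays, and in the control line from 108.2 to 113.7. Edn1 went from 108.1 to 79.7 on the Pax6(5a) arrays, from 144.9 to 161.9 on the Pax6 arrays and from 74.3 to 61.0 on the control arrays. A test of whether these passage differences differed between lines, run for the 7 probes detected on some array in each of the 3 pairs of lines, gave limma adjusted p-values of 0.40 and above. The smallest unadjusted limma p-values were 0.0017 for Nppb and 0.0033 for Edn1, both between the Pax6 and Pax6(5a) lines. Each later passage had 1 array, and so had both passages of the Pax6 line, so that the spread came from 2 pairs of same-passage arrays of the other lines and the test could hardly pass a threshold.

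**Figure D3:**
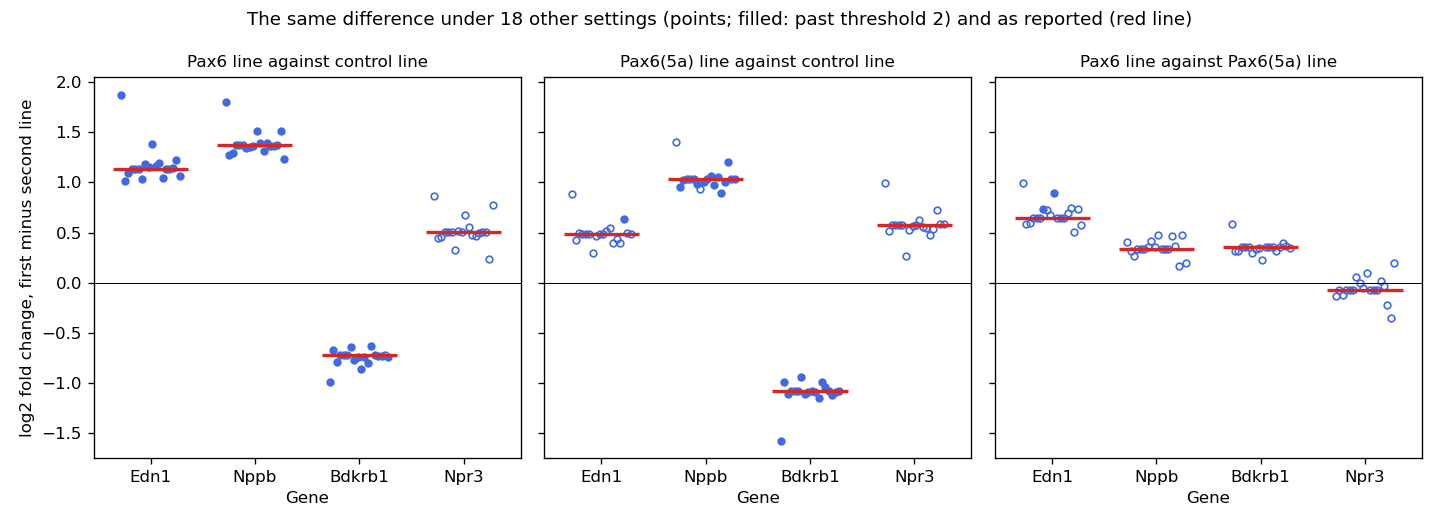
Log2 fold change (vertical, first minus second line) of Edn1, Nppb, Bdkrb1 and Npr3 in the 3 comparisons of lines, as reported (red line) and under 18 other settings (points, filled where past threshold 2). Every point keeps the sign of the reported value except for Npr3 between the Pax6 and Pax6(5a) lines, where the difference was near 0, and the neqc points lie farthest from 0 in both comparisons with the control.

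The wider pathway list held 83 other genes, of which 73 had a probe, 22 were detected on all arrays and 42 on none. In the Pax6 line 0 of the 73 passed threshold 2 (2.02% of all probes did), and 0 did between the Pax6 and Pax6(5a) lines (0.569% of all probes). In the Pax6(5a) line 1 of 73 did, near the 0.967% of all probes. This was Pde1a, a phosphodiesterase that breaks down cyclic nucleotides when calcium rises. Its signals were 246.2, 211.4 and 220.7 on the control arrays, 138.9, 153.4 and 118.8 on the Pax6(5a) arrays and 173.7 and 172.6 on the Pax6 arrays, with no overlap between lines.
Relative to the control, Pde1a fell by 0.73 on the log2 scale with the Pax6(5a) insert (SE 0.10, limma adjusted p = 0.0011), a call that was lost with neqc and with averaged preparations. In the Pax6 line its log2 difference from the control was -0.38 (limma adjusted p = 0.058). Over the 73 genes the median log2 difference was 0.04 on the Pax6 arrays and 0.02 on the Pax6(5a) arrays.

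By role, the list measured 13 ligand precursors (2 detected on all arrays), 12 receptors and their partners (2), 17 processing and degrading enzymes (5), 10 G protein and phospholipase C genes (6), 8 receptor regulators (4) and 13 genes of the cyclic GMP pathway (3). The nearest relatives of the members were for the most part below detection. Edn2 was detected on 1 array, and the other endothelin gene Edn3, the C-type peptide gene Nppc, the B-type peptide receptor gene Npr1, the angiotensin genes Agt, Agtr1b and Agtr2 and the converting enzyme gene Ace on none. Nppa, the A-type peptide gene, was detected on all arrays at 77.9 to 101.4, close to the detection limit. Its difference from the control was 0.12 on the Pax6 arrays and 0.10 on the Pax6(5a) arrays on the log2 scale (limma adjusted p of 0.69 and 0.75).
The kininogen gene Kng1, source of the ligands of Bdkrb1, was detected on all arrays at 85.7 to 170.6, and Ece2, the second endothelin-converting enzyme, at 201.7 to 245.7. Neither passed threshold 2 in any comparison of lines, but with passage number as a covariate Kng1 did for the Pax6(5a) line against the control and against the Pax6 line.

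For each of the called members, the 3 genes with the most similar profile over the 8 arrays were found among 8151 genes, by the root mean square distance between log2 signals centred on each gene's mean. Nearest to Edn1 were Gdap1 (distance 0.11), a mitochondrial outer membrane protein gene, Flrt2 (0.15), which encodes a guidance and adhesion protein, and Fez2 (0.15). In the Pax6 line they were higher than the control by 1.02, 0.84 and 1.02 on the log2 scale, beside 1.14 for Edn1. Nearest to Nppb were Pkp2 (0.19), which encodes a desmosome plaque protein, Ankrd1 (0.22), an ankyrin-repeat gene best known from stressed heart muscle, and the lysozyme gene Lyz2 (0.23).
Ankrd1 had signals of 650.7, 746.0 and 519.4 on the control arrays, 1359, 1545 and 1063 on the Pax6(5a) arrays and 1716 and 1552 on the Pax6 arrays. Like Nppb, it was higher on every array with an insert than on any control array, and lowest at passage 13 among those arrays. Nearest to Bdkrb1 were Il13ra1 (0.10), a receptor chain for interleukins, Nfkbiz (0.11), an inducible regulator of NF-kappaB target genes, and Ptgir (0.14), the prostacyclin receptor gene. Nfkbiz had signals of 705.7, 672.7 and 859.6 on the control arrays, 285.3, 285.2 and 355.0 on the Pax6(5a) arrays and 390.2 and 390.7 on the Pax6 arrays, the same order of lines as Bdkrb1. These genes were selected for their profiles, so the likeness is a description without a test.

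**Figure D4:**
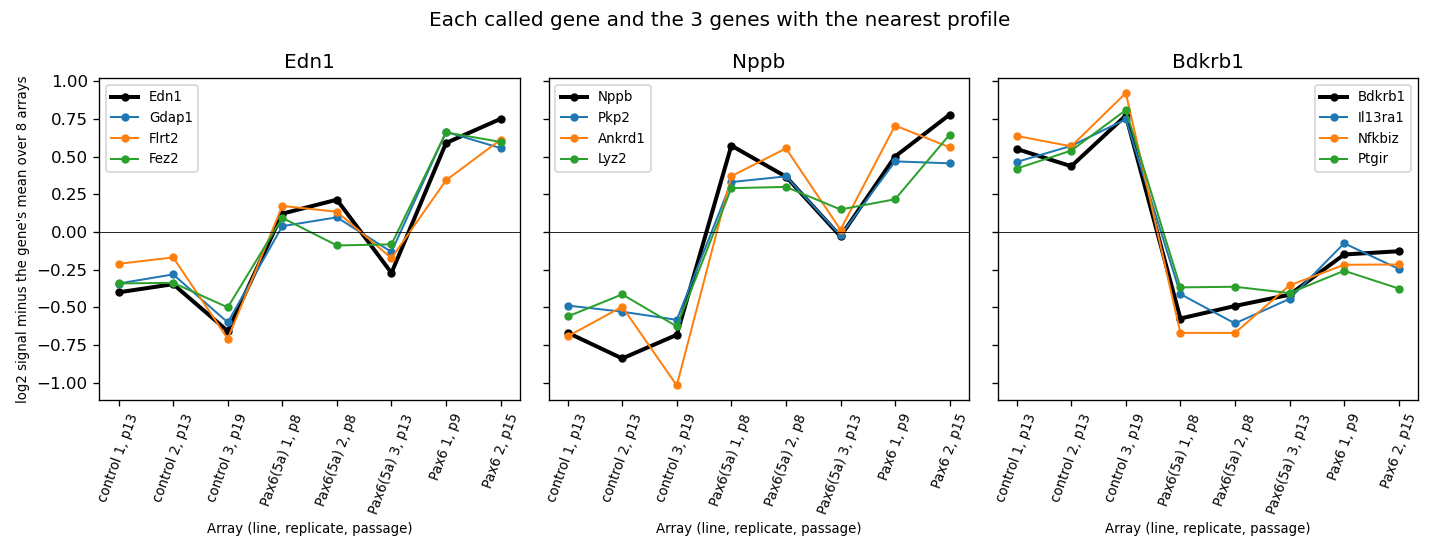
Log2 signal minus the gene's own mean over the 8 arrays (vertical) for Edn1, Nppb and Bdkrb1 (black) and the 3 genes nearest to each (colours), by array in the order control, Pax6(5a), Pax6 with replicate and passage number (horizontal). By line means, Edn1 and its neighbours are ordered control, Pax6(5a), Pax6, but none of them passed threshold 2 in the Pax6(5a) line. Flrt2 overlaps there, with 207.5 at Pax6(5a) passage 13 and 208.2 on control replicate 2. Nppb and its neighbours are high in both lines with an insert with a dip at Pax6(5a) passage 13. Bdkrb1, Il13ra1 and Nfkbiz are lowest in the Pax6(5a) line, while Ptgir lies below the detection limit on every array with an insert (50.3 to 55.8) and has no order there.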

How the data were processed

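Total RNA (300 ng per sample) was amplified, labelled with biotin and hybridized to Illumina arrays by the authors and their core facility. The intensity of each probe was deposited by the authors before and after quantile normalization, and a detection p-value per probe and array was deposited with it. Neither the scanning software nor a background correction ahead of export is given in the sources used here. The number of arrays limits the precision.

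The intensities before normalization were quantile normalized, which gave the authors' normalized values to within a relative 5.00e-10, and put on the log2 scale. The lines were compared with limma 3.58.1 (R 4.3.3) in 1 model of the 8 arrays that had a coefficient per line, with Benjamini-Hochberg adjustment over 24613 probes. The code was run on simulated data with known changes and independent arrays. That setting lacks the passage and culture differences of these arrays, so it checks the code and not the design. The thresholds are those of the study's methods. Of the probes, 20984 had 1 gene, 1 several and 3628 none, and for other genes the probe with the highest mean signal was used. Members, gene lists and markers were chosen with earlier results of these data known. Named were all members, their nearest relatives, pathway genes past threshold 2 and the 3 nearest profiles (genes detected on at least 2 arrays) of each called member. The test of passage differences between lines and the remaining genes named below were chosen after the data were seen. Alternatives were background correction (neqc, offset 16; normexp, offset 50), median scaling, a detection filter, a variance trend, only the lines compared, passage number, averaged preparations, a culture block, a replicate block and each array left out.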

Additional observations from a re-analysis of the deposited data

How the results depend on the processing

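The differences of the 7 probes detected on some array were recomputed under 18 alternatives for each of 3 comparisons of lines, which gave 378 values. Of these, 372 kept their side of threshold 2, 3 lost a call, 3 gained one and none of the called values changed sign. The total says little, since all settings used the same arrays. It also counts Npr2 and both Ece1 probes, which reached at most 1.24-fold in any setting and so stayed far from the threshold. With neqc the Pax6(5a) line had 1 member called against the control (Bdkrb1) and 0 pathway genes, and the same counts, 1 and 0, came from averaging the preparations of a passage. The share of all probes past threshold 2 there also fell, from 0.967% to 0.605% with neqc and 0.232% with averaging. With passage number as a covariate, 1 member (Edn1) and 2 pathway genes (Kng1 and Rgs2) were called between the Pax6 and Pax6(5a) lines, and 2 pathway genes (Kng1 and Pde1a) in the Pax6(5a) line. More of all probes were called with this covariate too. The share was 0.926% between the Pax6 and Pax6(5a) lines, against 0.569% without it. In the Pax6(5a) line it was 2.04%, against 0.967%. The replicate numbers 1 and 2 of the control and Pax6(5a) lines did not pair the arrays (r = 0.018 over 24613 probes between their differences, across probes, which are not independent). With them as a replicate block 1 member, Edn1, was called between the Pax6 and Pax6(5a) lines (log2 0.89, limma adjusted p = 0.0021). Pathway calls were 1 (Adm) in the Pax6 line and 2 (Adm and Pde1a) in the Pax6(5a) line, and the other counts with the block were the same. Of all probes, 1.88% passed in the Pax6 line with the block, 1.17% in the Pax6(5a) line and 0.390% between the Pax6 and Pax6(5a) lines. For the lines, this block set replicates 1 and 2, all of the earlier passage, apart from replicate 3 and the Pax6 arrays. It thus cannot be told apart from passage, and both Pax6 passages were set against levels of the other lines shifted towards their later passage. Leaving out each array in turn gave 2 to 3 members called in the Pax6 line, 2 to 3 in the Pax6(5a) line, 0 between the Pax6 and Pax6(5a) lines and 0 for passage, with 0 pathway genes in the Pax6 line, 1 to 2 in the Pax6(5a) line (2 without control replicate 1, Adm and Pde1a) and 0 between them; where a line was left with 1 array, it was assumed to vary like the others. The cause of these changes was not tested. Signals near the detection limit (Edn1 in the control line, Npr3) hold mostly background, which limits their fold changes.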

Other observations

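Of the pathway genes below threshold 2, 2 are given here, chosen after their values were seen. Adm, the gene of adrenomedullin, another vasodilator peptide, had signals of 111.5, 95.1 and 71.8 in the control line, 149.8, 152.3 and 125.7 in the Pax6(5a) line and 134.7 and 126.6 in the Pax6 line. All arrays with an insert were above every control array (log2 difference 0.64 in the Pax6(5a) line, limma adjusted p = 0.019, and 0.52 in the Pax6 line, limma adjusted p = 0.064). Prkg2, the gene of a membrane-bound kinase that cyclic GMP activates, had signals of 3856, 3421 and 3549 in the control line, 3684, 3753 and 2829 in the Pax6(5a) line and 2202 and 2698 in the Pax6 line. Its log2 difference from the control was -0.56 in the Pax6 line (limma adjusted p = 0.019) and -0.09 in the Pax6(5a) line (limma adjusted p = 0.83).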
